A study of Homo sapiens with 4 samples.

Results

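The genes described here are 36 genes of mitotic entry and chromosome segregation, taken from a fixed list of G2/M regulators, kinetochore and checkpoint proteins and mitotic kinesins, out of the 60649 gene rows measured. The list goes by name and function and uses no measured value, although it was drawn up with earlier results of these data known. All 36 had a row in the count table and all 36 passed the filter on low counts, with mean levels between 13.9 CPM (counts scaled to a common library size) for CDC25C and 705 CPM for MKI67. RNA sequencing was done on FaDu, an established human line from a squamous cell carcinoma of the hypopharynx. One group carried a construct for overexpression of TINCR joined to HA and FLAG epitope tags and the other an empty vector, with 2 libraries per group and 4 in all. Both groups grew in the same medium with serum. No source used here gives the promoter that drives the construct or says whether either line is 1 clone. The series calls its replicates technical, so every p-value measures only the spread between these libraries.

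Entry into mitosis is driven by CDK1 bound to cyclin B, which CDC25 phosphatases activate and the kinases PLK1 and Aurora A promote. Kinetochores then attach chromosomes to the spindle while a checkpoint of MAD and BUB proteins holds back the anaphase-promoting complex until attachment is complete, after which CDC20 and UBE2C let that complex mark securin and cyclin B for destruction. Most of these genes are transcribed in a wave in G2 and mitosis, through MYBL2 and FOXM1 bound with the MuvB complex at promoter elements called CHR (cell cycle genes homology region), often beside CCAAT boxes bound by NF-Y. In squamous cancers such genes serve as measures of proliferation. A change in the share of dividing cells and a change in RNA per cell cannot be told apart in RNA from whole cultures.

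Promoter windows of 250 bases before to 50 bases after the start site were found for 29 of the 36 genes in RefSeq (GRCh38.p14), with none matched for AURKA, FOXM1, BUB3, TTK, UBE2C, BIRC5 and TPX2. Forms of the CHR element were searched on both strands, spelled TTTGAA in its main form and with the variants TTTAAA and CTTGAA as well as TTCGAA. At least 1 of them stood in 26 of the 29 windows (89.7%), beside 32.5% of 27305 windows of all RefSeq genes. CCAAT stood on either strand in 21 of the 29 (72.4%), beside 35.7% of all windows, and at least 2 CCAAT in 13 (44.8%), beside 11.3%. Both kinds of element were present in 20 windows (69.0%), beside 12.7% of all. The windows of CDC25B, CDC25C and AURKB held none of the CHR forms. Each gene was searched in a single window, so elements at any other start site of these genes would be missed. An empty window therefore does not show that a gene lacks them. The 160 bases before the start site of 4 genes are shown, all of which are described library by library further on. CDC20 and AURKB had negative fold changes, and AURKB is the one of them without a CHR form in the window searched. CENPF and MKI67 had higher values in replicate 1 of both groups, opposite to CDC20. Capitals mark the CHR forms and CCAAT, where a CCAAT of the other strand reads ATTGG. In CDC20 and AURKB, 26 and 29 of the bases shown lie in an annotated GENCODE exon, since other transcripts start further upstream. The AURKB stretch lies inside the annotated gene, which reaches to base 8210600, so the bases before that further start were not searched.
CDC20, chr1:43358821-43358980, plus strand: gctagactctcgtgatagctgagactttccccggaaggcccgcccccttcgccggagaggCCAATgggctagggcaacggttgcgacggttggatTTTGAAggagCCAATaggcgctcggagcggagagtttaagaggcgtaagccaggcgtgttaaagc
AURKB, chr17:8210226-8210385, minus strand: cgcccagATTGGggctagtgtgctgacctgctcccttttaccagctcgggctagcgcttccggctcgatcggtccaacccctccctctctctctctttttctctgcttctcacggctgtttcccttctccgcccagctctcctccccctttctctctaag
CENPF, chr1:214603035-214603194, plus strand: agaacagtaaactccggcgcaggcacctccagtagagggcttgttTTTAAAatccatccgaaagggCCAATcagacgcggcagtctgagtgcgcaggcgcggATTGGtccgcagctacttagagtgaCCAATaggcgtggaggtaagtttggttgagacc
MKI67, chr10:128126424-128126583, minus strand: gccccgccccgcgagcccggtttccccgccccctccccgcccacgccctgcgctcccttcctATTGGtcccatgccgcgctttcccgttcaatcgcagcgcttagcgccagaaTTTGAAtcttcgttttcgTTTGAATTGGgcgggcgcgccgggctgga
CDC20 had a TTTGAA at -65 between CCAAT boxes at -55 and -100, where the start site counts as 0 and the first base of each match is given. AURKB had 1 CCAAT of the other strand, at -153. CENPF had a TTTAAA at -115 and CCAAT at -94, -58 and -33. In MKI67 the TTTGAA at -29 shared a base with the CCAAT of the other strand at -24, another TTTGAA began at -47, and another CCAAT at -98. A match of letters is a description of the sequence and not a test of binding.

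**Figure D1:**
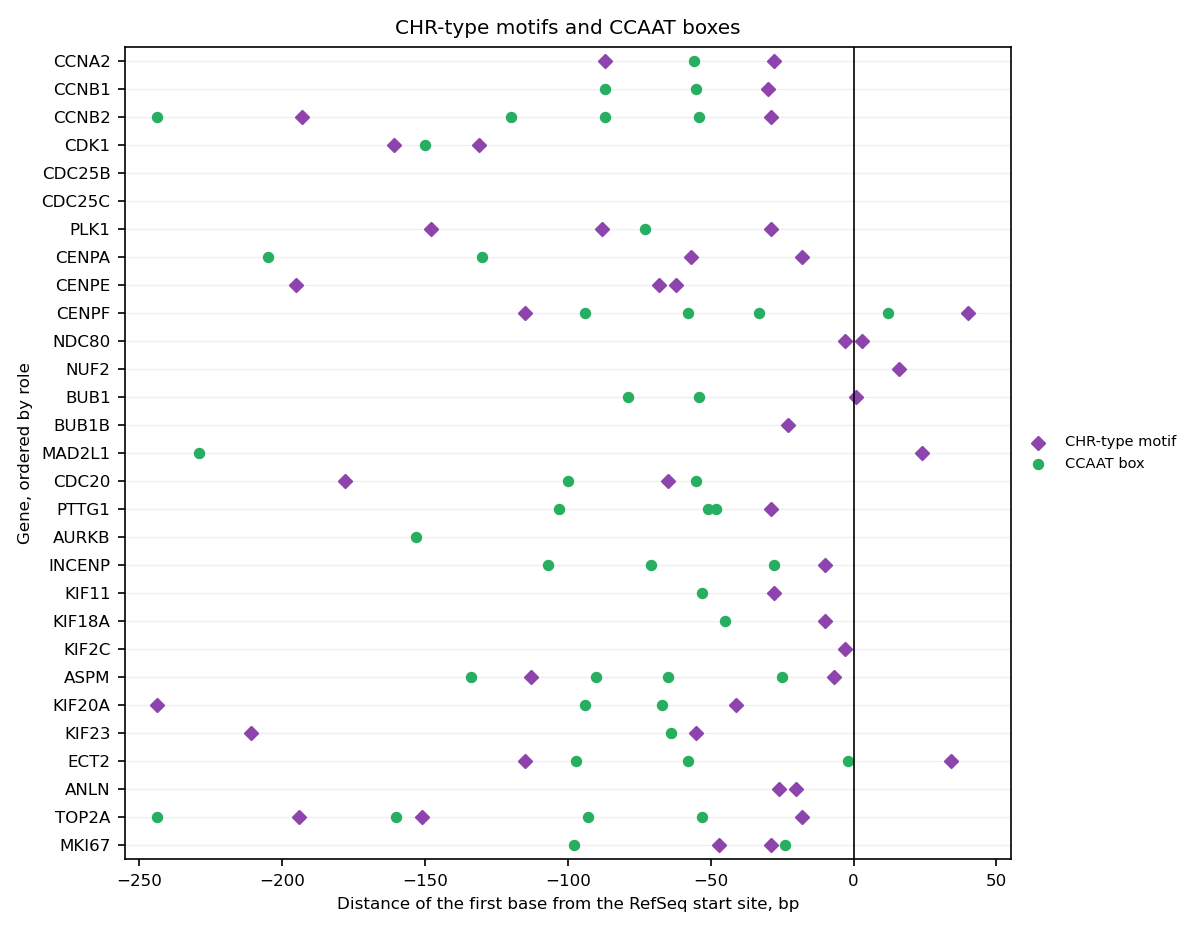
CHR-type motifs (diamonds) and CCAAT boxes (circles) in the 29 promoter windows, by distance of their first base from the RefSeq start site in bases. Of 45 CHR matches, 26 begin in the 100 bases before the start, and the rows of CDC25B and CDC25C are empty.

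The total counts were 18151424 and 22331602 in the TINCR-HA-FLAG libraries and 17069533 and 17315648 in the empty vector libraries, where 3 counts correspond to 0.135 to 0.177 CPM. The 36 genes took 0.627% and 0.639% of all counts with TINCR-HA-FLAG, against 0.653% and 0.650% with the empty vector. Mitochondrial genes took 11.4% and 8.66% with TINCR-HA-FLAG, against 9.43% and 7.58% with the empty vector. Libraries of one group differed beyond sampling noise over the 36 genes (chi-square per degree of freedom 32.9 with TINCR-HA-FLAG and 8.94 with the empty vector). Over all genes tested the same value was 16.8 with TINCR-HA-FLAG and 11.7 with the empty vector. Each library counted as 1 sample. TINCR itself had 1921 and 2943 counts with TINCR-HA-FLAG, against 68 and 64 counts with the empty vector (log2 fold change 4.93, SE 0.17, adjusted p = 7.2e-07, edgeR). The 9 squamous markers summed to 6948 and 8325 CPM with TINCR-HA-FLAG, against 8174 and 9404 CPM with the empty vector, with overlap between groups, and TP63, a squamous lineage factor, lay between 219 and 265 CPM in the 4 libraries. One of them, the basal keratin gene KRT14, fell to 45.9 and 64.2 CPM with TINCR-HA-FLAG, against 108 and 125 CPM with the empty vector (log2 fold change -1.08, adjusted p = 0.014, edgeR). The 8 leukocyte markers summed to 10.2 and 14.1 CPM with TINCR-HA-FLAG, against 12.4 and 14.0 CPM with the empty vector. Their defining gene PTPRC had 6 and 3 counts with TINCR-HA-FLAG and 4 and 3 counts with the empty vector, and most of the sum came from CD14 and LYZ. The 5 endothelial markers summed to 14.3 and 13.5 CPM with TINCR-HA-FLAG, against 10.9 and 11.1 CPM with the empty vector, without overlap. PECAM1 had 8 and 4 counts with TINCR-HA-FLAG and 7 and 5 counts with the empty vector, and most of the sum came from VWF, with 244 and 272 counts with TINCR-HA-FLAG against 156 and 176 counts with the empty vector (log2 fold change 0.39, adjusted p = 0.481, edgeR). The 8 fibroblast markers summed to 51.2 and 51.4 CPM with TINCR-HA-FLAG, against 46.2 and 42.1 CPM with the empty vector, also without overlap, mostly from COL1A1 (log2 fold change 0.40, adjusted p = 0.259). The part of these markers in the values of the mitotic genes was not tested.

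No mitotic gene passed the test between TINCR-HA-FLAG and empty vector cells when libraries were not paired by replicate number. With the replicate number as a block in the edgeR fit, 7 of the 36 were called lower and 0 higher, beside 7.01% of all genes lower. The labels do not say that these numbers pair the libraries. Without the block, 0 of the 36 genes were called at an edgeR adjusted p under 0.05. Of all 18771 genes tested 0.549% were called (0.453% higher and 0.0959% lower), and 0.855% of the genes in the range of their levels. At an unadjusted p under 0.05 there were 2, AURKB and FOXM1, beside 10.2% of all genes. FOXM1 stood at the threshold, with an upper bound of its log2 interval of -3.05e-05. DESeq2 called 0 of them, beside 1.08% of the 14109 genes to which it gave an adjusted p. Its unadjusted p was under 0.05 for 2 of the 36, beside 1100 genes in all. Fold changes lay between 0.803 for AURKB and 1.13 for KIF18A. The median log2 fold change was -0.05, with 22 genes negative and 14 positive, beside a median of 0.0042 over all genes tested and 49.3% of them negative. The 95% interval of the fold change lay within 1.5-fold in either direction for all 36 genes, beside 45.6% of all genes tested and 87.4% of the 8660 genes whose mean level lay in the range of the 36. The lowest bound of any of them was 0.668 (FOXM1) and the highest 1.34. Both libraries of one group lay apart from both of the other for 14 genes, 10 lower (beside 17.9% of all genes) and 4 higher (beside 21.7%) with TINCR-HA-FLAG, which is 38.9% against 39.6% of all genes.

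**Figure D2:**
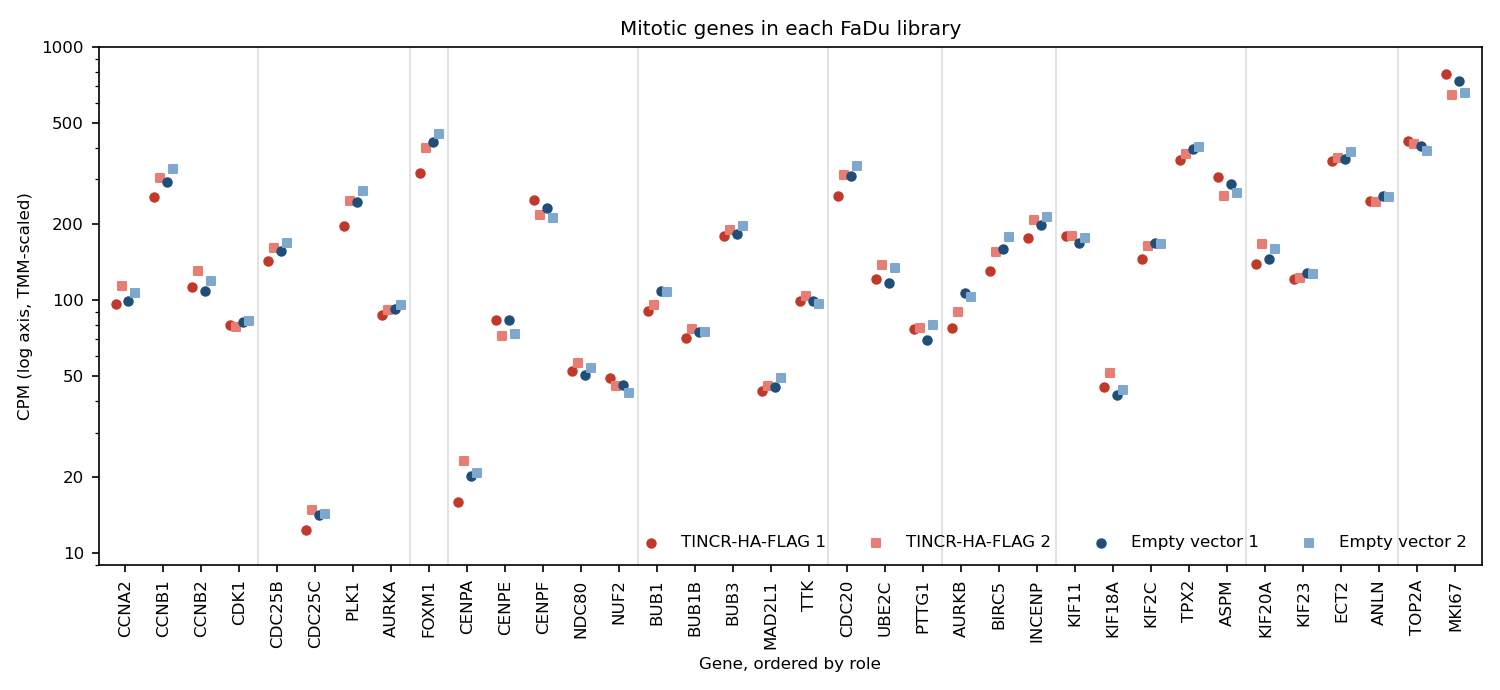
Level of each of the 36 genes in CPM on a log axis, 1 point per library, with TINCR-HA-FLAG libraries in red and empty vector libraries in blue; grey lines separate roles. The 4 points of a gene lie close together compared with the distance between genes. For 28 of 36 genes the points of one group lie further apart than the group means, beside 71.5% of all genes tested.

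The cyclin and CDK1 genes had no common direction. CCNB1, the cyclin that brings CDK1 into mitosis (ENSG00000134057.15, GRCh38 chr5:69167010-69178245, plus strand), had 257 and 303 CPM with TINCR-HA-FLAG, against 294 and 329.9 CPM with the empty vector. The highest TINCR-HA-FLAG library lay above the lowest empty vector library, and the log2 fold change of -0.16 had a 95% interval of -0.43 to 0.12 (adjusted p = 0.749, edgeR). Its partner in function CCNB2 averaged 121 ± 12.2 CPM with TINCR-HA-FLAG and 114 ± 7.31 CPM with the empty vector (SD, n = 2 each), a log2 fold change of 0.09. CCNA2, the cyclin of S phase and early mitosis, averaged 105 ± 12.2 CPM with TINCR-HA-FLAG and 103 ± 5.32 CPM with the empty vector (SD, n = 2 each), a log2 fold change of 0.03. CDK1, the kinase that both cyclin types activate, averaged 79.4 ± 1.05 CPM with TINCR-HA-FLAG and 82.1 ± 0.519 CPM with the empty vector (SD, n = 2 each), and its interval of -0.27 to 0.17 was among the narrowest.

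All 4 listed genes of the phosphatases and kinases that promote entry had negative fold changes, none of which passed the test. Among 16 other G2/M kinases, inhibitors and cofactors, 8 fold changes were negative and 8 positive. PLK1, the polo-like kinase of mitotic entry and spindle poles (ENSG00000166851.15, GRCh38 chr16:23677656-23690367, plus strand), had 196 and 247 CPM with TINCR-HA-FLAG, against 244 and 269.9 CPM with the empty vector. One library of each group, TINCR-HA-FLAG 2 and empty vector 1, were nearly equal, so the groups overlapped (log2 fold change -0.21, interval -0.50 to 0.08, adjusted p = 0.657). AURKA, the spindle pole kinase, averaged 89.3 ± 2.69 CPM with TINCR-HA-FLAG and 93.8 ± 2.76 CPM with the empty vector (SD, n = 2 each). Its groups did not overlap, at a log2 fold change of -0.07. CDC25B and CDC25C, genes of phosphatases that remove the inhibitory marks from CDK1, had log2 fold changes of -0.09 and -0.06. CDC25B averaged 152 ± 12.8 CPM with TINCR-HA-FLAG and 163 ± 8.95 CPM with the empty vector, and CDC25C averaged 13.6 ± 1.70 CPM with TINCR-HA-FLAG and 14.2 ± 0.104 CPM with the empty vector (SD, n = 2 each).

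FOXM1, the transcription factor of the G2/M program (ENSG00000111206.13, GRCh38 chr12:2857681-2877155, minus strand), had 317 and 398 CPM with TINCR-HA-FLAG, against 422 and 453 CPM with the empty vector. Both TINCR-HA-FLAG libraries were below both empty vector libraries, with TINCR-HA-FLAG 1 the lowest. With an SE of 0.13, the log2 fold change of -0.29 did not pass the test (adjusted p = 0.49).

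Of 5 centromere and kinetochore genes, 3 had positive and 2 negative fold changes, and the groups overlapped for all 5. NUF2, a subunit of the NDC80 complex that holds microtubules, had 49.4 and 45.7 CPM with TINCR-HA-FLAG, against 46.1 and 42.8 CPM with the empty vector. Its log2 fold change of 0.10 was the largest in size of the 5 and its groups overlapped. CENPF, a large protein of the outer kinetochore, had 248 and 217 CPM with TINCR-HA-FLAG, against 232 and 212 CPM with the empty vector (log2 fold change 0.07). In both groups replicate 1 was the higher library. NDC80, the subunit that names the complex, had a log2 fold change of 0.06, CENPE, the kinetochore kinesin, -0.02, and CENPA, the histone variant of centromeres, -0.06. NDC80 averaged 54.5 ± 2.77 CPM with TINCR-HA-FLAG and 52.4 ± 2.50 CPM with the empty vector, and CENPE averaged 77.9 ± 8.28 CPM with TINCR-HA-FLAG and 78.7 ± 7.14 CPM with the empty vector (SD, n = 2 each). On the log2 scale the 2 TINCR-HA-FLAG libraries of CENPA stood furthest apart of the 36 genes (difference -0.53), at 15.9 and 23.1 CPM, beside 20.1 and 20.8 CPM with the empty vector.

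Of 5 checkpoint genes, 4 had negative fold changes and 1 positive, and BUB1 differed most. BUB1, the kinase that recruits the checkpoint proteins to kinetochores (ENSG00000169679.15, GRCh38 chr2:110637698-110678114, minus strand), had 90.6 and 95.3 CPM with TINCR-HA-FLAG, against 109 and 107 CPM with the empty vector. The libraries of each group lay close together and the groups did not overlap (log2 fold change -0.22, SE 0.10, interval -0.44 to 0.0061, adjusted p = 0.513). BUB3, the partner through which BUB1 and BUB1B bind kinetochores, had 179 and 190.0 CPM with TINCR-HA-FLAG, against 182 and 196 CPM with the empty vector. Its groups overlapped, with a log2 fold change of -0.03. BUB1B, which encodes BUBR1 of the mitotic checkpoint complex, had a log2 fold change of -0.02, and MAD2L1, the checkpoint protein that binds CDC20, -0.08. TTK, the kinase MPS1 that starts checkpoint signalling, had 0.06 with groups that did not overlap. The mean of BUB1B was 73.9 ± 4.05 CPM with TINCR-HA-FLAG and 75.1 ± 0.0531 CPM with the empty vector, that of MAD2L1 was 44.7 ± 1.44 CPM with TINCR-HA-FLAG and 47.5 ± 2.80 CPM with the empty vector and that of TTK was 102 ± 3.34 CPM with TINCR-HA-FLAG and 97.7 ± 1.86 CPM with the empty vector (SD, n = 2 each). BUB1B shares exon sequence with the annotated readthrough gene BUB1B-PAK6, so its reads could be split between them.

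The genes of anaphase control gave 1 negative and 2 small positive values. CDC20, the activator of the anaphase-promoting complex in mitosis (ENSG00000117399.14, GRCh38 chr1:43358955-43363203, plus strand), had 257 and 311 CPM with TINCR-HA-FLAG, against 309 and 339 CPM with the empty vector. TINCR-HA-FLAG 1 was the lowest and TINCR-HA-FLAG 2 lay just above the lower empty vector library (log2 fold change -0.19, interval -0.46 to 0.09, adjusted p = 0.688). UBE2C, the ubiquitin-conjugating enzyme of that complex, averaged 129 ± 11.8 CPM with TINCR-HA-FLAG and 126 ± 11.9 CPM with the empty vector (SD, n = 2 each). PTTG1, which encodes securin, averaged 77.3 ± 0.544 CPM with TINCR-HA-FLAG and 74.6 ± 7.48 CPM with the empty vector (SD, n = 2 each). Their log2 fold changes were 0.04 and 0.05.

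The 3 listed genes of the chromosomal passenger complex, which corrects wrong attachments and then directs cytokinesis, all had negative fold changes. None of the 3 genes of the complex passed the test. AURKB, its kinase (ENSG00000178999.13, GRCh38 chr17:8204733-8210600, minus strand), had 77.9 and 89.8 CPM with TINCR-HA-FLAG, against 106 and 103 CPM with the empty vector. It had the smallest p of the 36 and its groups did not overlap (log2 fold change -0.32, SE 0.11, interval -0.56 to -0.08, adjusted p = 0.336). BIRC5, which encodes survivin, had 131 and 155 CPM with TINCR-HA-FLAG, against 159.7 and 178 CPM with the empty vector. Its groups did not overlap, but the gap between them was smaller than that between the 2 libraries of either group (log2 fold change -0.24, adjusted p = 0.557). INCENP, the scaffold of the complex, had 177 and 208 CPM with TINCR-HA-FLAG, against 198 and 212 CPM with the empty vector. The INCENP groups overlapped (log2 fold change -0.09, adjusted p = 0.867). Summed over these 3 genes the level was 385 and 453 CPM with TINCR-HA-FLAG, against 464 and 492 CPM with the empty vector. CDCA8, another subunit gene of the complex, was counted among the other machinery genes below. Its log2 fold change was -0.16 and its groups overlapped (adjusted p = 0.741, edgeR).

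Of 5 spindle motors and assembly factors, 3 had positive and 2 negative fold changes. KIF18A, a kinesin that limits chromosome movement at the metaphase plate (ENSG00000121621.7, GRCh38 chr11:28020620-28108308, minus strand), had 45.6 and 51.5 CPM with TINCR-HA-FLAG, against 42.0 and 44.1 CPM with the empty vector. Its groups did not overlap and its log2 fold change was 0.17 (interval -0.08 to 0.43, adjusted p = 0.681). TPX2, the spindle assembly factor that activates Aurora A, had 359 and 379 CPM with TINCR-HA-FLAG, against 395 and 402 CPM with the empty vector. These groups did not overlap either, at a log2 fold change of -0.11. KIF2C, the microtubule-depolymerizing kinesin MCAK, had a log2 fold change of -0.12, KIF11, the motor that separates spindle poles, 0.06, and ASPM, a spindle pole protein, 0.03. KIF2C averaged 154 ± 12.7 CPM with TINCR-HA-FLAG and 167 ± 0.972 CPM with the empty vector, and KIF11 averaged 179 ± 0.190 CPM with TINCR-HA-FLAG and 172 ± 5.70 CPM with the empty vector (SD, n = 2 each). Both had groups that did not overlap. ASPM averaged 282 ± 35.4 CPM with TINCR-HA-FLAG and 276 ± 16.4 CPM with the empty vector (SD, n = 2 each).

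The 4 genes of the central spindle and cytokinesis had fold changes near 1. KIF23, the motor of centralspindlin, had 121 and 122 CPM with TINCR-HA-FLAG, against 128 and 127 CPM with the empty vector. ECT2, the exchange factor that activates RHOA at the cleavage furrow, had 354 and 365 CPM with TINCR-HA-FLAG, against 361 and 384 CPM with the empty vector. Log2 fold changes were -0.07 for KIF23, -0.05 for ECT2, -0.06 for the furrow scaffold gene ANLN and 0.0051 for the kinesin gene KIF20A. KIF23 and ANLN had groups that did not overlap, at differences of this size. ANLN averaged 246 ± 1.35 CPM with TINCR-HA-FLAG and 257 ± 0.274 CPM with the empty vector, and KIF20A averaged 153 ± 19.4 CPM with TINCR-HA-FLAG and 152 ± 10.2 CPM with the empty vector (SD, n = 2 each). TOP2A, the topoisomerase that untangles chromosomes, had 426 and 412 CPM with TINCR-HA-FLAG, against 405 and 389 CPM with the empty vector. Its groups did not overlap (log2 fold change 0.08, adjusted p = 0.884). MKI67, which coats mitotic chromosomes and is the usual marker of proliferation, had 784 and 646 CPM with TINCR-HA-FLAG, against 733 and 658 CPM with the empty vector. Replicate 1 was the higher library in both groups and the groups overlapped (log2 fold change 0.04, interval -0.26 to 0.34).

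**Figure D3:**
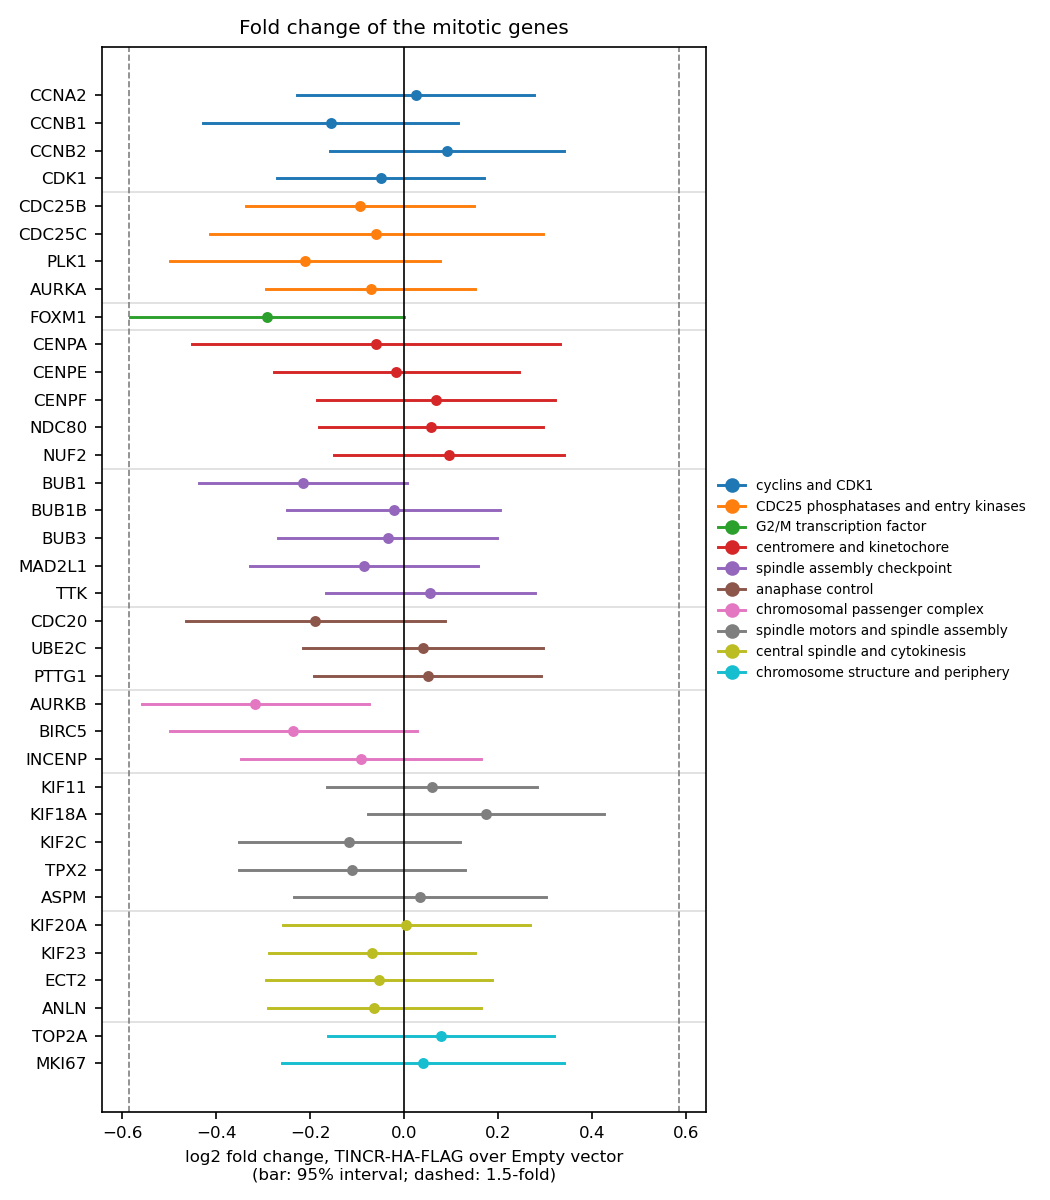
Log2 fold change of TINCR-HA-FLAG over empty vector for the 36 genes, with 95% intervals from the edgeR fit, coloured by role; dashed lines mark 1.5-fold. Every interval lies inside the dashed lines, and only those of FOXM1 and AURKB leave out 0, that of FOXM1 barely (upper bound -3.05e-05).

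The genes differed far more from each other than between groups. Per length (RPKM, CPM per kilobase of annotated exon), CDC20 was highest with 139 ± 18.9 RPKM with TINCR-HA-FLAG and 159 ± 10.5 RPKM with the empty vector (SD, n = 2 each). CCNB1 came next with 109 ± 12.9 RPKM with TINCR-HA-FLAG and 122 ± 9.88 RPKM with the empty vector, followed by TPX2 with 102 ± 3.89 RPKM with TINCR-HA-FLAG and 111 ± 1.28 RPKM with the empty vector (SD, n = 2 each). The lowest were MAD2L1 with 7.78 ± 0.251 RPKM with TINCR-HA-FLAG and 8.26 ± 0.486 RPKM with the empty vector and CDC25C with 4.07 ± 0.509 RPKM with TINCR-HA-FLAG and 4.25 ± 0.0312 RPKM with the empty vector (SD, n = 2 each). PLK1 had 46.6 ± 7.58 RPKM with TINCR-HA-FLAG and 54.0 ± 3.84 RPKM with the empty vector, AURKB had 37.4 ± 3.74 RPKM with TINCR-HA-FLAG and 46.6 ± 1.16 RPKM with the empty vector and AURKA had 30.5 ± 0.918 RPKM with TINCR-HA-FLAG and 32.0 ± 0.944 RPKM with the empty vector (SD, n = 2 each). The ranges of PLK1 and AURKB over the 4 libraries overlapped. Of 35 pairs of neighbours in this order, 28 had ranges over the 4 libraries that overlapped. The 7 breaks came after KIF11, AURKA, TTK, KIF23, NUF2, KIF18A and MAD2L1. The order depended on the length used. Per length of the longest annotated transcript, CDC20 stayed first, with a mean of 171 RPKM over the 4 libraries, but UBE2C came next with 139 RPKM, then CCNB1 with 136 RPKM, FOXM1 with 114 RPKM and TPX2 with 106 RPKM. AURKB then stood above PLK1, at 75.1 against 57.9 RPKM. PTTG1 had 71.0 in place of 37.7 RPKM and CDK1 had 41.4 in place of 20.5 RPKM.

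**Figure D4:**
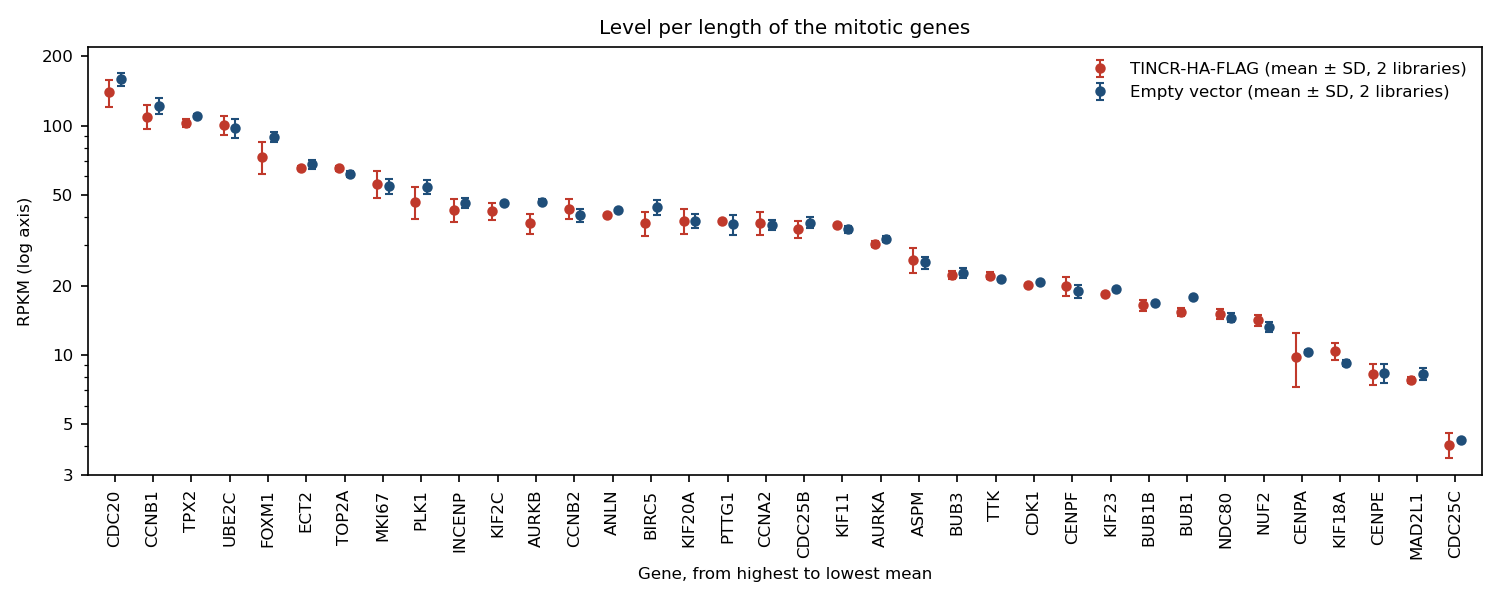
Level per length of the 36 genes in RPKM on a log axis, from highest to lowest, as mean and SD of 2 libraries for TINCR-HA-FLAG (red, left) and empty vector (blue, right). Levels run down from CDC20 to CDC25C, and the symbols of both groups lie side by side along the whole order.

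Libraries of one group often lay further apart than the groups did, among the 36 genes as among all genes. For 28 of the 36 genes the larger of the differences between 2 libraries of a group exceeded the difference between group means, beside 71.5% of all genes tested. Single libraries vary more than means of 2, which favours the former in this count and in the medians that follow. On log2(CPM + 0.5), the median size of the difference was 0.17 between the TINCR-HA-FLAG libraries and 0.10 between the empty vector libraries, beside 0.069 between groups. Replicate 1 was lower than replicate 2 for PLK1 (by log2 -0.33 with TINCR-HA-FLAG and -0.14 with the empty vector) and CDC20 (-0.28 and -0.13). It was higher for MKI67 (0.28 and 0.16), ASPM (0.26 and 0.12), CENPF (0.19 and 0.13) and CENPE (0.22 and 0.18). These 4 have the longest exon sequence of the 36, from 9444 bases in CENPE to 12807 bases in MKI67. Across the 36 genes the difference between replicates 1 and 2 correlated with log2 exon length at r = 0.674 with TINCR-HA-FLAG and r = 0.623 with the empty vector, beside 0.337 and 0.207 over 11955 genes of all kinds. With the GC content of the longest transcript r was -0.584 and -0.415. These are descriptions across genes, which share libraries and are not independent.

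The difference between groups went with GC content as well, at r = -0.612 across the 36 genes and -0.13 across the 11955, and hardly with length (r = 0.176). FOXM1, AURKB, BIRC5, PLK1 and CDC20, which had 5 of the 6 lowest fold changes, have a GC content of 52.2% to 57.9%, whereas BUB1, the other gene among the 6, has 42.5%. INCENP and CDC25B have the highest GC content, 59.6% and 59.3%, with the smaller log2 fold changes given above. With an offset for GC content and exon length in each library, a correction chosen after the data were seen, 27 of the 36 fold changes were negative in place of 22, and 0 were called, beside 1.62% of all genes (0.554% lower). The median log2 fold change over all genes moved from 0.0042 to -0.015 with the correction, and that of the 36 from -0.051 to -0.079. Log2 fold changes went from -0.317 to -0.312 for AURKB, -0.291 to -0.289 for FOXM1 and -0.236 to -0.240 for BIRC5. For CDC20 the change was from -0.189 to -0.177 and for BUB1 from -0.216 to -0.259. What part library composition has in the lower values was not tested beyond that correction.

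**Figure D5:**
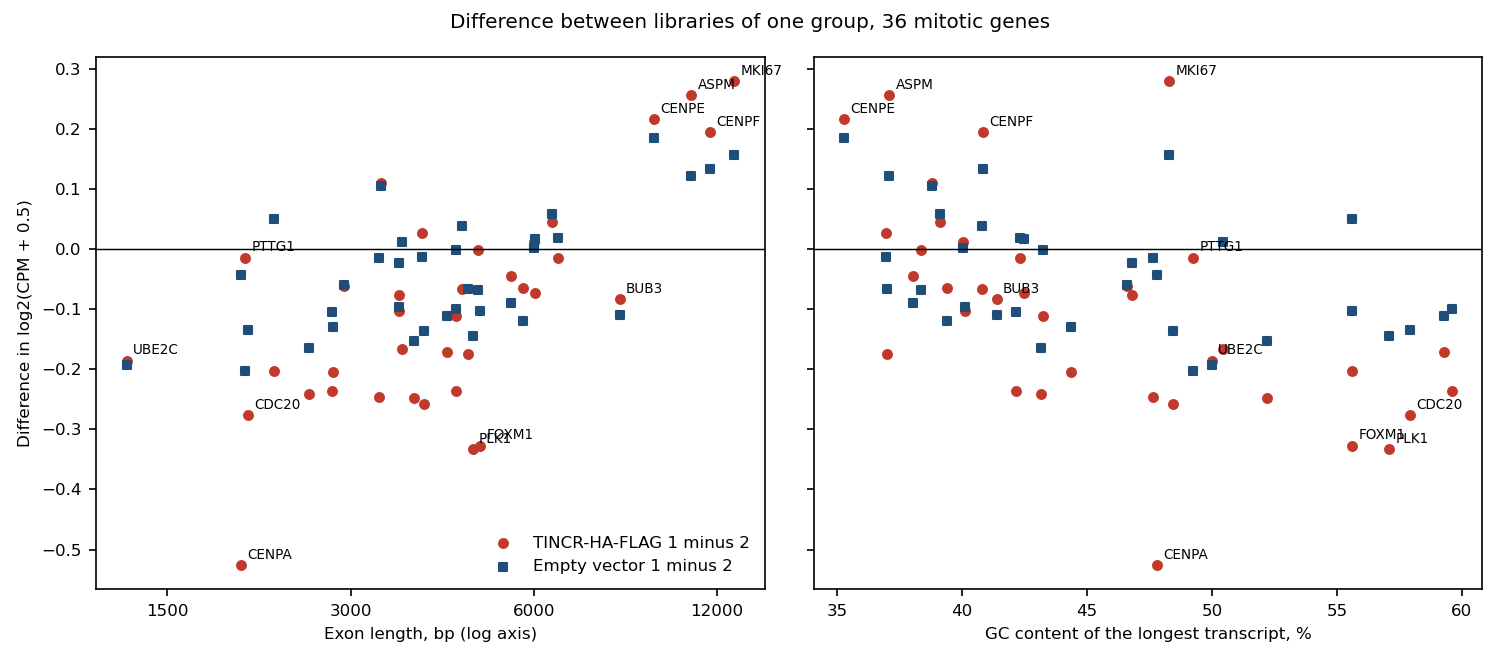
Difference in log2(CPM + 0.5) between libraries 1 and 2 of TINCR-HA-FLAG (red circles) and of empty vector (blue squares) for each of the 36 genes, against exon length in bases on a log axis and GC content in percent. MKI67, ASPM, CENPF and CENPE stand at the right and above 0, and CENPA lies lowest.

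The other genes of the mitotic machinery were counted in 10 lists with 149 genes, of which 147 passed the filter on low counts. As among the 36, 0 were called by edgeR without the replicate block. An unadjusted p under 0.05 was found for 15, which is 10.2% of the 147 and the same share as among all genes. DESeq2 called 1, SFN. The median log2 fold change was -0.038, with 87 negative (59.2%, beside 49.3% of all genes) and 60 positive. The groups did not overlap for 42.9% of the 147, beside 39.6% of all genes. The gene with the smallest p of each list is given here, a choice that itself favours groups that do not overlap. SFN, which encodes 14-3-3 sigma, a protein that holds cyclin B and CDK1 out of the nucleus after DNA damage, had 142 and 189.7 CPM with TINCR-HA-FLAG, against 253 and 291 CPM with the empty vector. Its groups lay apart (log2 fold change -0.71, SE 0.14, adjusted p = 0.0741). It passed in DESeq2 (adjusted p = 0.00225), with library totals (0.0483), without TINCR-HA-FLAG replicate 2 (4.79e-06), without empty vector replicate 1 (0.00189) and with the GC and length correction (0.00392), in a range up to 0.184 over the 12 alternatives without a replicate block.

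TRIP13, the ATPase that takes apart checkpoint complexes, had 74.3 and 91.0 CPM with TINCR-HA-FLAG, against 112 and 123 CPM with the empty vector. The groups did not overlap (log2 fold change -0.51, SE 0.12, adjusted p = 0.135), and over the same 12 alternatives its adjusted p lay between 0.00168, without TINCR-HA-FLAG replicate 2, and 0.402. It also passed without empty vector replicate 1 (0.0474) and with the GC and length correction (0.0257). HJURP, the chaperone that loads CENPA at centromeres, had 54.8 and 56.0 CPM with TINCR-HA-FLAG, against 76.2 and 72.8 CPM with the empty vector. Its libraries lay close together within each group (log2 fold change -0.43, SE 0.10, adjusted p = 0.132), with adjusted p between 0.0342, with the GC and length correction, and 0.37 over the 12 alternatives. CENPC, which ties the inner kinetochore to CENPA and was added here for its call without TINCR-HA-FLAG replicate 2 (adjusted p = 0.0376, up to 0.791 in the others), had 33.8 and 26.1 CPM with TINCR-HA-FLAG, against 23.7 and 21.2 CPM with the empty vector.

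In the remaining 7 lists the gene with the smallest p had an adjusted p of 0.279 or more. KIF18B, a kinesin that shortens astral microtubules, had 116 and 122 CPM with TINCR-HA-FLAG, against 167 and 140.1 CPM with the empty vector. The log2 fold change of KIF18B was -0.36. Both of its TINCR-HA-FLAG libraries lay below both empty vector libraries. CCNF, the F-box cyclin of G2, had 68.6 and 74.1 CPM with TINCR-HA-FLAG, against 83.8 and 83.7 CPM with the empty vector (log2 fold change -0.23). NCAPH, a subunit of condensin I, had 66.1 and 73.6 CPM with TINCR-HA-FLAG, against 76.7 and 86.0 CPM with the empty vector (log2 fold change -0.22). CDCA5, which encodes the cohesin protector sororin, had 43.0 and 49.8 CPM with TINCR-HA-FLAG, against 50.1 and 56.4 CPM with the empty vector (log2 fold change -0.20). In all 3 the groups did not overlap. SGO2, a shugoshin that protects cohesin at centromeres, had 20.5 and 17.7 CPM with TINCR-HA-FLAG, against 21.8 and 23.9 CPM with the empty vector (log2 fold change -0.26), again without overlap. In the other 2 lists the gene with the smallest p had a positive value. RBL2, which encodes the pocket protein p130 that represses cell cycle genes with MuvB in resting cells, had 116 and 117 CPM with TINCR-HA-FLAG, against 95.9 and 97.3 CPM with the empty vector (log2 fold change 0.27, adjusted p = 0.366). ANAPC16, a subunit of the anaphase-promoting complex, had 82.8 and 84.6 CPM with TINCR-HA-FLAG, against 62.5 and 70.8 CPM with the empty vector (log2 fold change 0.33, adjusted p = 0.303). Neither passed the test.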

How the data were processed

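Per the labels' protocols, total RNA came from an RNeasy preparation and libraries from the NEBNext Ultra RNA kit. The authors deposited raw whole-number counts for each Ensembl gene. The submitters' processing notes list DESeq2 1.32.0, STAR 2.7.9a, bcl2fastq 2.20.0.422 and the build GRCh38, without their roles. How reads were counted, with which strand setting, is not given in the sources used here. This touches 13 of the 36 genes, whose exons overlap those of another gene (FOXM1, PLK1, NUF2, KIF18A and KIF23 among them). Of the columns, 12 of other libraries were not used.

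Symbols came from a reference table (60463 of 60649 rows), and positions, exon lengths and transcript GC content from GENCODE v29 (58381 rows). After TMM scaling and filterByExpr, groups were compared in R 4.3.3 by the quasi-likelihood test of edgeR 4.0.16 (robust, common biological coefficient of variation 0.118, 2 residual degrees of freedom). Benjamini-Hochberg adjustment ran over all genes tested, and calls were made at an adjusted p under 0.05. Standard errors were derived from the F statistic. Intervals cover the spread of these libraries, and the 3-count limit counting error alone.

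Values by library were given for TINCR, for the gene of each of 10 role groups with the largest absolute log2 fold change and the one with the highest CPM, for the 6 genes with the smallest p, and from each pathway list for the gene with the smallest p. CENPA, CENPC, the markers and the 4 promoters were picked after values were seen. The members and lists were chosen with earlier results of these data known. Alternatives were DESeq2 1.42.0, other scalings and filters, leaving out TINCR, the legacy dispersion, a block for the replicate number, leaving out each library, and the correction for GC content and length, which was added after seeing the data.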

Additional observations from a re-analysis of the deposited data

How the results depend on the processing

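None of the 36 genes was called higher in any setting or lower in the 12 settings without the replicate block, where the smallest adjusted p was 0.115 (AURKB, without TINCR-HA-FLAG replicate 2). Their median log2 fold change stayed negative, between -0.10 and -0.026 with 1 library left out and between -0.08 and -0.032 in the other settings, while 16 of the 36 genes changed sign in at least 1 setting and none of those was called in either direction. With the replicate number as a block, 7 of the 36 genes were called lower (FOXM1, AURKB, BIRC5, PLK1, CDC20, BUB1 and CCNB1), beside 7.01% of all genes, and 8, with TPX2 added, when the GC and length correction was also made, beside 9.54%. The labels do not say that the replicate numbers pair the libraries. Same-numbered libraries deviated together, at r = 0.586 across 11984 genes and 0.693 across the 36, as a hint from the data. The block left 1317 genes called higher and 1316 lower (1277 and 1790 with the correction), and 9 higher and 14 lower among the other machinery genes (9 and 25 with the correction). Of the machinery genes named above, the block called SFN (adjusted p = 3.08e-36), TRIP13 (4.18e-13), HJURP (2.05e-07), KIF18B (1.32e-07), CCNF (0.0094) and NCAPH (0.015) lower, and ANAPC16 (6.58e-05), RBL2 (0.000407) and CENPC (0.000869) higher. It called all 9 in the same direction with the correction too, where SGO2 (0.0179) and CDCA5 (0.0477) were also called lower. Without the block, all genes called numbered 47 higher and 6 lower with no filter on low counts, 108 higher and 44 lower in DESeq2, and 200 higher and 104 lower with the correction, beside 85 and 18 as reported. With 1 library left out they numbered 69 to 226 higher and 45 to 160 lower. The spread of a lone library is then taken from the group that still has both. Other machinery genes called lower numbered 1 in DESeq2, 1 with library totals and 3 with the correction. With 1 library left out they numbered 0 to 2, and 0 to 1 were called higher. The cause of these differences was not tested.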
